A study of Mus musculus with 6 samples.

Results

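Gene expression in activated mouse CD4+ T cells carrying control shRNA was compared with and without harmine, over all 23420 genes of the deposited table. The comparison used 4 of the study's 6 RNAseq libraries, 2 from cells given control shRNA and harmine and 2 from cells given control shRNA alone, and the labels of each library decided its group. All cells were CD4+CD62L+ T cells purified with magnetic beads from the spleens of BALB/c mice aged 12 weeks. They were activated on plates coated with anti-CD3 and anti-CD28, the antibodies that stand in for antigen and costimulation, and after 24 hours received a 20-fold concentrated virus carrying a scramble shRNA. After another 24 hours the cells were fed medium with IL-2, and the harmine group also received harmine at 3.7 µM. Cells were harvested 48 hours after feeding. The remaining 2 libraries came from cells that received Dyrk1a shRNA in place of the scramble shRNA and no harmine, and they entered the shared fit and 1 side comparison. The labels name no vehicle for the untreated cells, no polarizing cytokines were added by the study's methods, and nothing states that the replicates came from separate animals or cultures, so that p-values here measure only the spread between these libraries.

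Harmine is a plant β-carboline that occupies the ATP pocket of the kinase DYRK1A and also inhibits other DYRK kinases, the related CLK kinases and monoamine oxidase A. DYRK1A has several known substrates in cells that divide after activation. It phosphorylates LIN52 and so favours assembly of the DREAM complex, which holds cell cycle genes silent in resting cells, it marks cyclin D for destruction, and it primes NFAT factors for export from the nucleus. Harmine acts on the activity of these proteins, which RNA levels do not measure.

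The libraries held 1096345 to 1743428 counts in the control group and 3441063 to 3747648 in the harmine group. CD4 T cell identity genes summed to 5340 and 5357 CPM (counts per unit of TMM-scaled library size) in the controls and to 5300 and 5568 CPM with harmine, and Cd4 itself stood at 296 and 374 CPM against 329 and 370 CPM. Markers of other cells were present at low levels and were highest in control replicate 1. B cell markers summed to 389 and 251 CPM in the control libraries and to 272 and 268 CPM with harmine, myeloid markers to 379 and 207 CPM against 221 and 217 CPM, and CD8 T and NK cell markers to 47.7 and 31.2 CPM against 40.2 and 35.4 CPM, with Ncr1, Klra1 and Klra8 at 0. Erythroid and platelet markers summed to 32.6 and 22.8 CPM against 19.1 and 19.0 CPM. All 10 B cell markers tested and 6 of 8 myeloid markers tested had fold changes below 0, with medians of -0.57 and -0.74 on the log2 scale, and without control replicate 1 these medians were -0.08 and 0.33. Control replicate 1 also carried more counts of short transcripts than control replicate 2 (Spearman's rho of their log2 difference with transcript length -0.37, across 10531 genes, which are not independent replicates). The counts of replicates differed by more than sampling noise in both groups, with a chi-square per degree of freedom of 10.4 between the controls and 3.84 between the harmine libraries.

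RNA of the harmine targets was measured first. No target passed edgeR's test in either direction, and none had an unadjusted p under 0.05. Dyrk1a had 58.4 and 82.7 CPM in the control libraries and 74.8 and 77.6 CPM with harmine, so that both harmine libraries lay between the controls (log2 fold change, harmine minus control, 0.13, standard error 0.21). The Dyrk1a shRNA libraries held 60.2 and 61.9 CPM of it, also between the controls (log2 fold change, Dyrk1a shRNA minus control, -0.19, standard error 0.21). No clear reduction of the targeted RNA was seen in them, and the cause was not tested. Clk1, a kinase of SR splicing proteins whose own splicing answers to CLK activity, had 276 and 373 CPM in the control libraries and 448 and 365 CPM with harmine, a log2 fold change of 0.33 (standard error 0.21). Clk2 at 0.13, Clk3 at 0.03 and Clk4 at 0.10 were closer to 0 on that scale, as were Dyrk2 at 0.16 and Dyrk3 at 0.04. Dyrk1b, the closest relative of Dyrk1a, and Maoa, the monoamine oxidase that harmine inhibits, were the 2 targets with groups that did not overlap, both lower with harmine, which is 22.2% of the 9 targets tested where 15.9% of all genes tested were lower in this way. Dyrk1b had 20.7 and 26.2 CPM against 20.3 and 19.0 CPM (-0.24, standard error 0.27) and Maoa 6.28 and 7.60 CPM against 6.26 and 4.75 CPM (-0.32, standard error 0.44). Dyrk4 and Maob reached at most 0.628 and 0.264 CPM in any of the 4 libraries and did not pass the filter on low counts. The directions of Dyrk1a, Dyrk2, Dyrk3, Clk3 and Clk4 turned when single libraries were left out, and the median of the 9 targets tested was 0.10 on the log2 scale, where that of all genes tested was -0.02.

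Of the 10607 genes tested, 1 rose with harmine and 0 fell at an adjusted p under 0.05 by the quasi-likelihood test of edgeR, adjusted after Benjamini and Hochberg, which is 0.00943% of genes. At an unadjusted p under 0.05 there were 562 genes (5.3%), of which 236 (2.22%) had higher and 326 (3.07%) lower levels with harmine. In 3426 genes (32.3%) both harmine libraries lay on the same side of both controls, in 1738 of them above (16.4%) and in 1688 below (15.9%). The 95% interval of a fold change reached a median of 0.56 to either side on the log2 scale. The number of genes that passed changed most when control replicate 2, the smallest library, was left out. Without it 291 genes passed, 36 higher and 255 lower, while without control replicate 1, harmine replicate 1 and harmine replicate 2 the number was 5, 4 and 5. DESeq2's Wald test called 3 genes, Gm20604, Ly6a and S100a6.

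**Figure D1:**
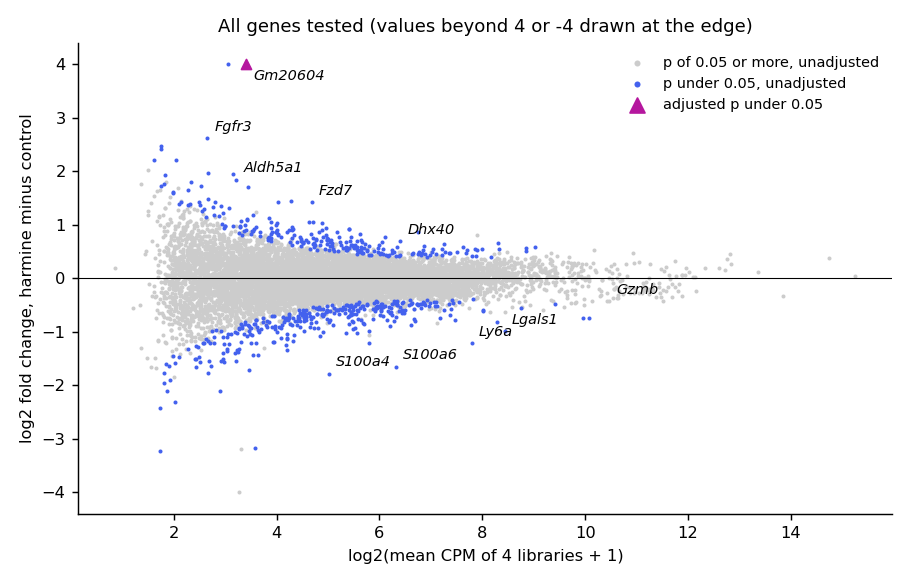
Each point is 1 of the 10607 genes tested, with its level over the 4 libraries as log2(mean CPM + 1) across and its log2 fold change, harmine minus control, upward, values beyond 4 being drawn at the edge. The 562 genes at an unadjusted p under 0.05 are blue, and the triangle marks Gm20604, the gene that passed after adjustment.

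The gene that rose was Gm20604, a protein-coding model on chromosome 12, read from the minus strand (chr12:102741732-102758672, GRCm38). Neither control held a count of it, harmine gave 22.7 and 15.8 CPM and Dyrk1a shRNA 13.03 and 16.5 CPM. Set against a floor of 3 counts for the control group, the harmine level was at least 17.6-fold higher (adjusted p = 0.00478, edgeR). The adjusted p ranged from 3.76e-12 to 0.104 over the alternatives. Moap1, which encodes a pro-apoptotic adaptor and lies inside Gm20604 on the same strand (chr12:102742230-102743661), had the opposite pattern, with 24.5 and 15.2 CPM in the controls, 0 and 4.22 CPM with harmine and 0 in both Dyrk1a shRNA libraries. Of the 50-base stretches of the longest Moap1 transcript, 88.4% were also in transcripts of Gm20604, and when their counts were summed the log2 fold change was 0.07 (standard error 0.30) with an adjusted p of 0.988 in edgeR. How the counting split reads between these genes can set both values, which makes them uncertain. Gm4724 on chromosome 2 (chr2:175422300-175435807), with 23.0 and 6.07 CPM in the harmine libraries and no count in either control (at least 12.96-fold over the same floor of 3 counts), is uncertain in the same way, because 100% of its 50-base stretches were also in transcripts of Gm14434, whose reads cannot be told from its own.

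Genes with higher RNA in both harmine libraries were of many kinds. None of those named in this paragraph and the next passed after adjustment, and all were chosen because their groups did not overlap. Fgfr3, a receptor tyrosine kinase for fibroblast growth factors, had 1.26 and 1.69 CPM in the control libraries and 8.05 and 10.0 CPM with harmine, 2.61 on the log2 scale (standard error 0.58) at an adjusted p of 0.57 in edgeR. Fzd7, a receptor for Wnt ligands, had 8.16 and 19.4 CPM against 34.0 and 37.0 CPM (1.43, standard error 0.32). Aldh5a1, the mitochondrial dehydrogenase of succinic semialdehyde in the breakdown of GABA, had 3.77 and 3.38 CPM against 13.4 and 12.7 CPM (1.84, standard error 0.43). In Fgfr3 and Aldh5a1 the replicates of each group lay close together, and for Fzd7 the controls lay further apart than the harmine libraries. The control values rest on few counts, 2 and 2 for Fgfr3 and 6 and 4 for Aldh5a1, so their closeness says little about the spread. The Dyrk1a shRNA libraries held 7.66 and 7.96 CPM of Fgfr3 and 9.20 and 7.96 CPM of Aldh5a1, also above the controls that both comparisons share.

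Ppp1r3c, which targets protein phosphatase 1 to glycogen, had 6.90 and 13.5 CPM in the control libraries and 23.2 and 30.1 CPM with harmine (log2 fold change 1.44, standard error 0.35). Prr11, a gene of the late cell cycle, had 28.9 and 27.9 CPM against 58.7 and 49.4 CPM (0.92, standard error 0.23). Both genes were lower in the Dyrk1a shRNA libraries than in the harmine libraries, at 13.9 to 18.4 CPM and 35.3 to 39.5 CPM in the same order. Dhx40, a DEAH-box helicase, had 62.1 and 65.8 CPM against 105 and 102 CPM (0.69, standard error 0.19), with the replicates of each group close together. Other genes of this direction were the helicase-like Dqx1 (1.94), 6430571L13Rik (1.43), the spindlin Spin4 (1.06), Fndc9 (1.03), the zinc finger gene Zscan12 (0.91), the adhesion molecule Amigo2 (0.86), the SNARE protein Vamp1 (0.74), the ubiquitin ligase Rnf216 (0.73) and the TFIID subunit Taf8 (0.72), all as log2 fold changes.

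**Figure D2:**
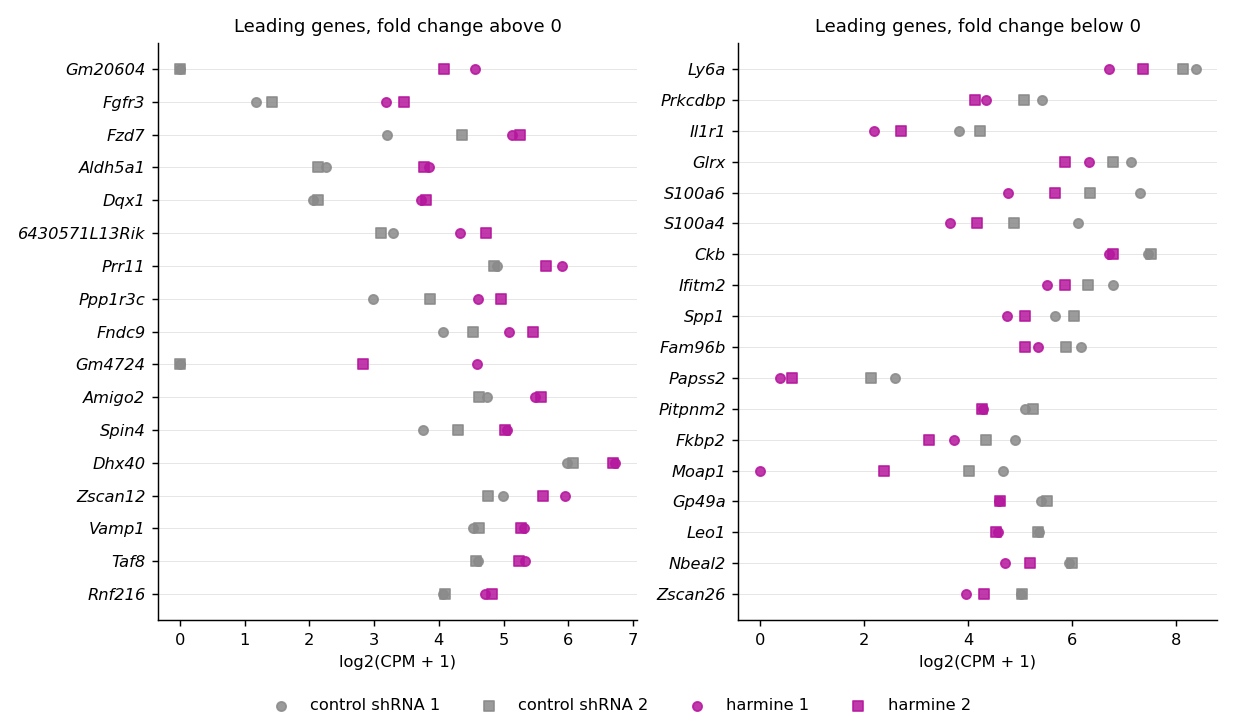
Levels in each library as log2(CPM + 1) for 17 leading genes with a fold change above 0 (left) and 18 below 0 (right), grey for control shRNA and purple for harmine, circles for replicate 1 and squares for replicate 2. In every row both harmine points lie on 1 side of both control points, as the choice of genes required, and Gm20604 and Gm4724 are at 0 in both controls.

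Genes with lower RNA in both harmine libraries were led by Ly6a on chromosome 15 (chr15:74994877-74998031), which encodes the surface antigen Sca-1 of activated T cells and is induced by interferons. Ly6a had 333 and 283 CPM in the controls, 103 and 164 CPM with harmine and 207 and 210 CPM with Dyrk1a shRNA, so that the Dyrk1a shRNA libraries lay between the other groups. Its log2 fold change was -1.21 (standard error 0.21, edgeR adjusted p = 0.195), and it passed in DESeq2, without a filter on low counts, without control replicate 2 and without harmine replicate 2. S100a6 and S100a4 are neighbouring genes for calcium-binding proteins on chromosome 3 (chr3:90612882-90624181 and chr3:90603771-90606045). S100a6 had 158 and 81.0 CPM in the control libraries and 26.2 and 50.2 CPM with harmine (-1.65, standard error 0.37), and S100a4 had 68.4 and 28.7 CPM against 11.6 and 17.2 CPM (-1.78, standard error 0.40). Both were higher in control replicate 1 than in control replicate 2, and S100a4 shares 56.3% of its 50-base stretches with the overlapping gene model Gm42674.

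Il1r1, the signalling receptor of IL-1, had 13.2 and 17.7 CPM in the controls, 3.58 and 5.54 CPM with harmine and 11.5 and 8.55 CPM with Dyrk1a shRNA (log2 fold change, harmine minus control, -1.72, standard error 0.40). Glrx, a glutaredoxin that reverses glutathionylation of proteins, had 141 and 110 CPM against 79.0 and 57.6 CPM (-0.88, standard error 0.21). Ckb, the brain-type creatine kinase, had 175 and 182 CPM against 104 and 110 CPM (-0.73, standard error 0.18), while the Dyrk1a shRNA libraries held 190 and 157 CPM of it. The replicates of Ckb differed little within each group. Spp1, which encodes the cytokine osteopontin, had 50.2 and 65.0 CPM against 25.9 and 33.3 CPM (-0.94, standard error 0.24). Papss2, a synthase of the sulfate donor PAPS, had 12 counts over both controls and 3 counts over both harmine libraries, which is 10.3-fold lower per library size with an exact interval for counting error of 2.77 to 56.8. Others, as log2 fold changes, were the cavin Prkcdbp (-1.07), Ifitm2 (-0.88), the cytosolic iron-sulfur assembly factor Fam96b (-0.83), Pitpnm2 (-0.93), the endoplasmic reticulum prolyl isomerase Fkbp2 (-1.25), Nbeal2 (-1.02), the zinc finger gene Zscan26 (-0.92), the inhibitory receptor relative Gp49a (-0.88) and the PAF1 complex subunit Leo1 (-0.82). Gp49a and Ifitm2 share 20.2% and 48.5% of their 50-base stretches with other genes.

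The gene lists in the following paragraphs were chosen with earlier results of these data known, so a share unlike that of all genes may follow from the choice. Genes of mitosis and cytokinesis had mostly higher RNA with harmine. Of 72 such genes, all tested, 61 had a log2 fold change above 0 and 11 below, with a median of 0.25, against 47.5% above 0 and a median of -0.02 over all genes tested. In 27 of them (37.5%) both harmine libraries lay above both controls, where 16.4% of all genes did, and in 3 (4.17%) both lay below, where 15.9% did. None passed after adjustment, and 9 had higher levels at an unadjusted p under 0.05, where 2.22% of all genes did. At the same threshold none had lower levels, where 3.07% of all genes did. Cdca2, which recruits protein phosphatase 1 to mitotic chromatin, had 20.7 and 23.6 CPM in the control libraries and 41.7 and 35.1 CPM with harmine (0.80, standard error 0.26). Plk1, the polo-like kinase of mitotic entry, had 23.2 and 26.2 CPM against 39.0 and 39.6 CPM (0.68, standard error 0.23). Kif18b, a kinesin that shortens astral microtubules, had 22.0 and 24.5 CPM against 37.6 and 39.3 CPM (0.73, standard error 0.26). Anln, the scaffold of the contractile ring, had 16.9 and 8.44 CPM against 28.0 and 21.1 CPM (0.89, standard error 0.33). In these 4 genes, picked as the members of smallest p, no control library reached the lower of the harmine libraries. In cells measured in bulk, more cells in mitosis and more RNA per cell cannot be told apart.

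The median of the mitosis genes stayed above 0 without each library in turn, from 0.14 without harmine replicate 1 to 0.38 without control replicate 1, and was 0.03 in the Dyrk1a shRNA libraries against the same controls, where 37 of the 72 genes lay above 0. Within groups this list differed by a median of 0.22 between the controls and 0.26 between the harmine libraries, replicate 1 being higher. These differences are near the median fold change of 0.25. DNA replication genes also had mostly higher RNA with harmine, with a smaller median. Of 54, all tested, 37 lay above 0 (68.5%, against 47.5% of all genes tested) with a median of 0.13. This median was 0.05 without control replicate 2 and 0.20 without control replicate 1. The controls differed from each other in this list by a median of 0.10, replicate 1 being higher. With Dyrk1a shRNA against the same controls, 30 lay above 0 with a median of 0.10. In 20 (37.0%) both harmine libraries lay above both controls, where 16.4% of all genes did, and in 5 (9.26%) both lay below, where 15.9% did. Mcm5, a subunit of the replicative helicase, had 35.2 and 38.8 CPM against 56.6 and 54.1 CPM (0.59, standard error 0.21). It was the only member of the 54 at an unadjusted p under 0.05, where 2.22% of all genes tested were higher and 3.07% lower. Lig1, the ligase of lagging strands, was at 0.42 and the transcription factor E2f1 at 0.46 on the log2 scale. The 13 genes of the DREAM and MuvB complexes had a median of 0.00, with Rbl1, which encodes p107, at 0.36 (standard error 0.20), Lin37 at -0.49 (standard error 0.26) and Lin52, which encodes the subunit that DYRK1A phosphorylates, at -0.68 (standard error 0.36). Of 11 genes for G1 cyclins, CDKs and their inhibitors tested, 8 lay above 0 with a median of 0.08, led by Cdkn2d, the CDK inhibitor p19, at 0.32 (standard error 0.19).

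The promoters of 3 of the mitosis genes above are shown because DREAM is known to bind late cell cycle promoters at the cell cycle genes homology region (CHR), often placed just downstream of boxes bound by NF-Y. The CHR was searched as TTTGAA, and also with a C in the third place, and the NF-Y box was searched as CCAAT. Each run covers 250 bases before the start of transcription and 50 after it, 5′ to 3′ on the strand of the gene, from RefSeq on GRCm38.p6, and capitals mark matches to either motif on either strand.
Plk1, chr7:122159185-122159484, plus strand: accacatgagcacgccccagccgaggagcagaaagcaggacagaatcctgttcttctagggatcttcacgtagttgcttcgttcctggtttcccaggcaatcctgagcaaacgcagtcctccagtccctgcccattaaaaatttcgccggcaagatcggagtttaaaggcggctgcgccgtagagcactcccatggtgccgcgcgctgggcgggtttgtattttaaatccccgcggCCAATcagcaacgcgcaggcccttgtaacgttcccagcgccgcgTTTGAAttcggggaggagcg
Kif18b, chr11:102925075-102925374, minus strand: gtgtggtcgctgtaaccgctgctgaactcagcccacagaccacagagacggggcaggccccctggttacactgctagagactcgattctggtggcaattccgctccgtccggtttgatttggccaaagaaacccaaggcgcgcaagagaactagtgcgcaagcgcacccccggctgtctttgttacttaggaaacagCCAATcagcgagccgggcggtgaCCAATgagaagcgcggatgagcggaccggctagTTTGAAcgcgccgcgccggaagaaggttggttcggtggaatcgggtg
Anln, chr9:22389157-22389456, minus strand: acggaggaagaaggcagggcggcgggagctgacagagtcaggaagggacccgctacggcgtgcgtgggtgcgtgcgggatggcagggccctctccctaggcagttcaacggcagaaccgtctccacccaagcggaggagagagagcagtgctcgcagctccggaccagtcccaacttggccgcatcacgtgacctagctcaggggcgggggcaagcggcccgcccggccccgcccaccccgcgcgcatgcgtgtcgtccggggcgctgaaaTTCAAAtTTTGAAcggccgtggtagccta
The Plk1 and Kif18b promoters each hold CCAAT followed by the CHR, whose first base lies at position 31 of the Plk1 transcript and position 4 of the Kif18b transcript, and the Anln promoter holds the CHR once on each strand, close together, and no NF-Y box. Promoters were at hand for 59 of the 72 mitosis genes. Of these, 74.6% held the CHR, 71.2% the NF-Y box and 62.7% both. Over the promoters of 7979 genes tested the shares were 13.6%, 39.3% and 5.92%, and over all 27025 promoters 19.4%, 37.9% and 7.70%. Of 44 DNA replication promoters, 18.2% held the CHR, 59.1% the NF-Y box and 11.4% both. Of 16 promoters of the cytotoxic and Th1 effector genes described below, mostly lower with harmine, the shares were 37.5%, 50% and 25%. A match describes letters in this window and was not used to choose the list. The shares belong to the lists whatever their fold changes, and members above and below 0 were not compared. A part of DREAM in the fold changes was not tested.

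Genes of cytotoxic granules and the Th1 effector programme had mostly lower RNA with harmine. Of 27 such genes 20 were tested, and 19 of them had a log2 fold change below 0, with a median of -0.43, against 52.5% below 0 over all genes tested. In 8 (40%) both harmine libraries lay below both controls, where 15.9% of all genes did, and in none did both lie above, where 16.4% of all genes did. None passed after adjustment, and 6 were lower at an unadjusted p under 0.05, where 3.07% of all genes were. As with the other lists, these shares may follow from a choice made with earlier results known. Gzmb, which encodes granzyme B and is the most abundant of them, had 1856 and 1394 CPM in the control libraries and 1253 and 1153 CPM with harmine (-0.43, standard error 0.26). Prf1, which encodes the pore protein perforin, had 27.0 and 23.6 CPM against 13.4 and 16.9 CPM (-0.74, standard error 0.28), and Gzmc, another granzyme, had 33.9 and 32.1 CPM against 23.0 and 21.7 CPM (-0.57, standard error 0.25). These granule genes were lower in both harmine libraries than in either control, unlike Nkg7 below. Prf1 and Gzmc were picked by small p and Gzmb after its values were seen, so this separation follows from the choice.

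Fasl, the death ligand, had 12.6 and 6.75 CPM in the controls against 3.87 and 2.90 CPM with harmine (log2 fold change -1.55, standard error 0.50), and the chemokine gene Ccl5 10.7 and 10.1 CPM against 2.98 and 5.81 CPM (-1.22, standard error 0.46). Tbx21, which encodes the Th1 factor T-bet, was low in all libraries, at 6.90 and 5.91 CPM against 3.87 and 2.90 CPM (-0.93, standard error 0.50). The granule membrane gene Nkg7 had 44.6 and 13.5 CPM against 17.9 and 12.7 CPM (-0.99, standard error 0.42), so that 1 harmine library lay above the lower control. Ifng reached at most 0.844 CPM and Eomes at most 3.43 CPM in these 4 libraries and neither passed the filter. The median of the list lay between -0.38, without control replicate 1, and -0.52, without control replicate 2, when each library was left out in turn, and was -0.21 with Dyrk1a shRNA against the same controls. The summed CD8 T and NK cell markers given above were highest in control replicate 1, and their part in this result was not tested.

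**Figure D3:**
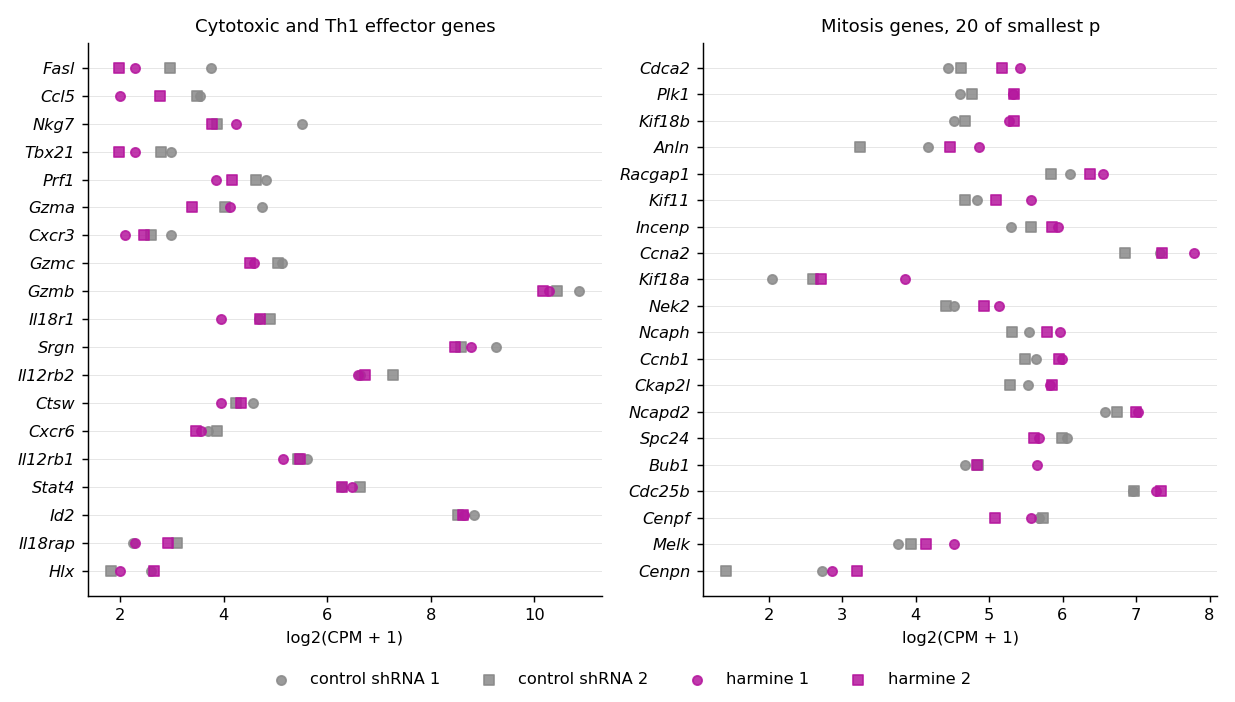
Levels in each library as log2(CPM + 1) for 19 of the 20 cytotoxic and Th1 effector genes tested (left, by fold change) and the 20 mitosis genes of smallest unadjusted p (right), grey for control shRNA and purple for harmine, circles for replicate 1 and squares for replicate 2. Gzmb lies far above the rest of its list, and Fasl, Ccl5, Prf1, Gzmc and Gzmb have both purple points left of both grey points.

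Other genes of activated and differentiating T cells had fold changes in both directions. Of 38 T cell receptor response genes tested, 23 lay above 0 with a median of 0.11. Zfp36l1, an mRNA decay factor, had 86.0 and 94.5 CPM against 127 and 121 CPM (0.46, standard error 0.18), whereas Dusp2, a nuclear phosphatase of ERK, had 73.4 and 49.8 CPM against 34.9 and 37.5 CPM (-0.78, standard error 0.23). Tnf was at -0.67 (standard error 0.29), and the immediate early gene Egr1 at -1.55 (standard error 0.58), which rested on control replicate 1, with 20.1 CPM against 4.22, 5.66 and 3.17 CPM elsewhere. Without that library the Egr1 value was 0.04. Of 16 NFAT, calcineurin and RCAN genes tested, 9 lay above 0 with a median of 0.00, and Rcan1, a calcineurin regulator whose short isoform NFAT induces, had 6.90 and 5.06 CPM against 11.03 and 8.98 CPM (0.71, standard error 0.41). Nfatc2, which encodes NFAT1, was at -0.30 (standard error 0.22).

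Of 21 Treg genes tested, 12 lay above 0 with a median of 0.04, near that of all genes. Foxp3 had 3.77 and 1.69 CPM in the control libraries and 2.38 and 3.17 CPM with harmine and did not pass the filter, in cells that had received no TGF-β. Gpr83, a receptor enriched on Treg cells, had 23.2 and 17.7 CPM against 33.1 and 46.5 CPM (0.94, standard error 0.28), with 14.2 and 20.6 CPM in the Dyrk1a shRNA libraries. Lrrc32, which encodes GARP, the docking receptor of latent TGF-β, had 41.4 and 39.7 CPM against 53.4 and 72.9 CPM (0.64, standard error 0.25). Ski and Ebi3, picked by the same rule, lay lower with harmine. Ski had 76.6 and 111 CPM against 60.5 and 71.0 CPM (-0.50, standard error 0.22), and Ebi3 was scarce, at -0.89 (standard error 0.63). In 4 of the 21 genes (19.0%) both harmine libraries lay above both controls and in 3 (14.3%) below, against 16.4% and 15.9% of all genes. Of 16 Th17 and IL-1 receptor genes tested, 10 lay below 0 with a median of -0.25, which was 0.26 without control replicate 2. Il1r1 was the member of smallest p, and Il21, a cytokine that drives germinal centre help, lay in the other direction with 37.0 and 65.0 CPM against 74.8 and 95.3 CPM (0.77, standard error 0.24). Il17a and Il22 were scarce, with 5.02 and 16.9 CPM against 3.87 and 7.13 CPM for Il17a (-0.89, standard error 0.55) and 6.90 and 14.3 CPM against 0.596 and 3.96 CPM for Il22 (-2.10, standard error 0.84), which shares 41.0% of its 50-base stretches with its copy Iltifb.

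Of 24 naive and homing genes, 14 lay above 0 with a median of 0.04. Il7r, the IL-7 receptor, had 58.4 and 80.2 CPM against 38.7 and 53.3 CPM (-0.57, standard error 0.23), Ly6c1 was at -0.99 (standard error 0.33) and Dapl1 at -1.21 (standard error 0.37). Of 22 effector and memory surface genes, 11 lay above 0 with a median of -0.01, and Itgb1, the β1 integrin, was at -0.49 (standard error 0.22). T cell identity genes had a median of 0.04 over 16 tested, with Cd3g at -0.32 (standard error 0.18) and Cd5 at 0.28 (standard error 0.18).

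S100, annexin and galectin genes, which encode calcium- and sugar-binding proteins abundant in effector and memory T cells, were mostly lower with harmine. Of 20 tested of 22, 18 lay below 0 with a median of -0.46, in 10 (50%) both harmine libraries lay below both controls, where 15.9% of all genes did, and 8 were lower at an unadjusted p under 0.05, where 3.07% of all genes were. Lgals1, which encodes galectin-1, had 625 and 294 CPM in the controls against 210 and 253 CPM with harmine (-0.99, standard error 0.29), and Lgals3, which encodes galectin-3, had 495 and 298 CPM against 229 and 223 CPM (-0.82, standard error 0.22). With Dyrk1a shRNA against the same controls, 14 of the 20 genes tested lay below 0 with a median of -0.23. The 2 controls differed from each other in this list by a median of 0.70, replicate 1 being higher, and without control replicate 1 the median with harmine was -0.20. The summed myeloid markers given above, a cell type that also expresses many of these genes, were highest in the same library, and their part in this result was not tested. Of 31 interferon response genes tested of 45, 21 lay below 0 with a median of -0.25, which was -0.07 without control replicate 2 and also without harmine replicate 1. The exonuclease gene Isg20 was at -1.11 (standard error 0.35), and the Schlafen genes Slfn5 and Slfn2 at -0.51 (standard error 0.24) and -0.42 (standard error 0.19).

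Lists of very short, abundant transcripts took their direction from the choice of control. Of 79 cytosolic ribosomal protein genes tested, 65 lay below 0 with a median of -0.23, and this was 0.52 without control replicate 1 and -0.73 without control replicate 2. The median difference of the controls from each other was 1.25, and that of the harmine libraries 0.04. The 84 nuclear-encoded respiratory chain genes tested did likewise, with a median of -0.27 and values of 0.35 and -0.68 without the same controls, although Ndufb2, a complex I subunit, at 33.9 and 13.5 CPM against 9.54 and 12.7 CPM, kept both harmine libraries below both controls (-1.13, standard error 0.37). No direction was read from either list.

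**Figure D4:**
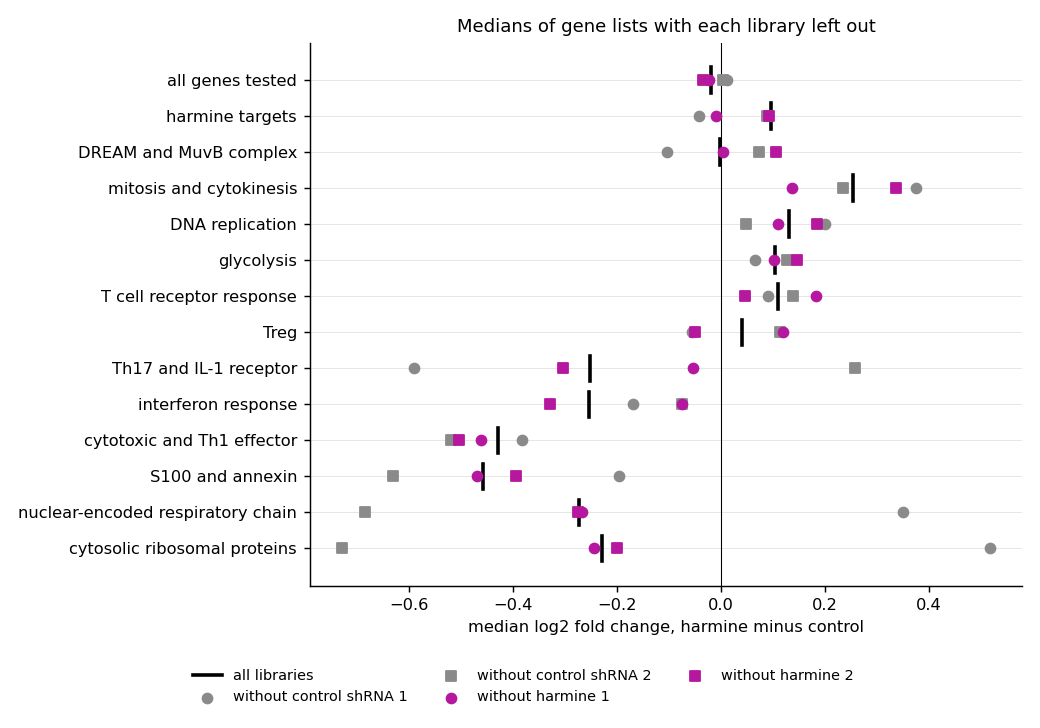
Median log2 fold change, harmine minus control, of each gene list with all libraries (black bars) and with each of the 4 libraries left out (grey for controls, purple for harmine, circles for replicate 1 and squares for replicate 2). The medians of ribosomal and respiratory chain genes lie on opposite sides of 0 without control replicate 1 and without control replicate 2, whereas those of cytotoxic genes lie between -0.38 and -0.52 and those of mitosis genes between 0.14 and 0.38.

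Among metabolic and stress genes, those of glycolysis had mostly slightly higher RNA with harmine. Of 24, all tested, 19 lay above 0 (79.2%, against 47.5% of all genes tested) with a median of 0.10. In 8 (33.3%) both harmine libraries lay above both controls, where 16.4% of all genes did, and in 1 (4.17%) both lay below, where 15.9% did. The shift was larger with Dyrk1a shRNA against the same controls, with 22 genes above 0 and a median of 0.30. The glycolysis genes included Slc2a1, the glucose transporter GLUT1, with 223 and 202 CPM against 236 and 293 CPM (0.32, standard error 0.19) and Pfkfb4, which sets fructose 2,6-bisphosphate, at 0.62 (standard error 0.29). Eno1 was the member with both harmine libraries below both controls, at 208 and 213 CPM against 157 and 184 CPM (-0.30, standard error 0.19). It shares 72.2% of its 50-base stretches with other genes. Of 33 cholesterol and fatty acid synthesis genes tested, 21 lay above 0 with a median of 0.08, among them Sqle, squalene epoxidase, at 0.25 (standard error 0.18). The 33 ATF4 and amino acid response genes tested were split into 16 above and 17 below 0, with Ddit4, an inhibitor of mTORC1, at 390 and 365 CPM against 557 and 522 CPM (0.51, standard error 0.20) and Atf3 at 0.66 (standard error 0.34). Of 18 heat shock genes tested, 12 lay below 0 with a median of -0.06, and the cochaperone Dnajb1 was at 0.46 (standard error 0.20). Of 24 p53 target genes tested, 16 lay above 0 with a median of 0.12, but Pmaip1, which encodes the BH3-only protein NOXA, was at -0.77 (standard error 0.30), and of 18 BCL2 family genes tested 10 lay below 0, Bcl2l1, which encodes the survival protein BCL-xL, being at -0.54 (standard error 0.25). Aldehyde dehydrogenases other than Aldh5a1 did not pass at an unadjusted p under 0.05, and the 11 tested had a median of -0.01. Only 3 of 10 aryl hydrocarbon receptor targets passed the filter, all above 0, and Tiparp, a repressor of that receptor, had 93.5 and 120 CPM against 163 and 147 CPM (0.54, standard error 0.19). Of 22 SR protein and kinase genes tested, the substrates and regulators of CLK kinases, 13 lay above 0 with a median of 0.04, and Srrm2, a spliceosome scaffold, had 852 and 732 CPM against 630 and 505 CPM (-0.48, standard error 0.22) while Rsrc1 was at 0.56 (standard error 0.27). Of 17 histone genes tested of 82, 11 lay below 0 with a median of -0.07.

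**Figure D5:**
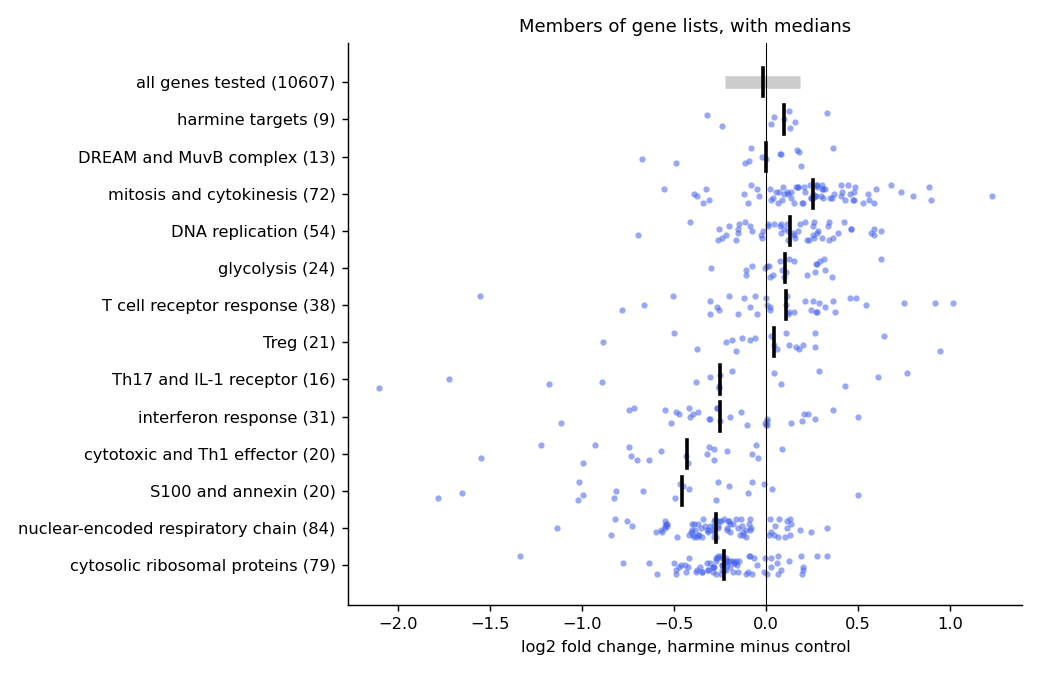
Log2 fold change, harmine minus control, of each tested member (points) and the median (black bars) of the gene lists, with the number tested in brackets; the grey bar spans the middle 50% of all genes tested. The cytotoxic list has 1 member above 0 and the mitosis list 61.

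Harmine and Dyrk1a shRNA differed in 1 gene, 0.00943% of genes, at an adjusted p under 0.05, and in 608 genes (5.73%) before the adjustment. The gene was Rps27 on chromosome 3 (chr3:90212522-90213651), a small ribosomal subunit protein, with 92.1 and 168 CPM with harmine and 21.5 and 11.5 CPM with Dyrk1a shRNA (log2 fold change, harmine minus Dyrk1a shRNA, 3.01, standard error 0.34, edgeR adjusted p = 0.0175). The controls held 196 and 252 CPM of it, so that both harmine libraries also lay below both controls. Rps27 shares 27.6% of its 50-base stretches with the near copy Rps27rt, and its level is uncertain for that reason. Since both treatments were set against the same 2 controls, the values of Dyrk1a shRNA given beside those of harmine are not independent of them.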

How the data were processed

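RNA was polyadenylated RNA, reverse transcribed from oligo-dT, tagged with Nextera and sequenced on a MiSeq. The authors aligned reads to mm10 and deposited 1 table of expected counts per gene from RSEM, not normalized. TopHat2 2.0.13, RSEM and DESeq are named in the submitters' processing notes. The version of RSEM and the annotation are not given in the sources used here.

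Expected counts were rounded to whole numbers. The test was the two-sided quasi-likelihood test of edgeR 4.0.16 (R 4.3.3), robust, with TMM scaling, on genes kept by filterByExpr at min.count 10, and p-values were adjusted by Benjamini-Hochberg with 0.05 as threshold. A model of 3 group means held all 6 libraries, which share the estimate of the spread, and 10607 of 23420 genes passed the filter. Overlap of groups was judged on log2 CPM with a prior count of 2. Per library, 1 CPM was worth 1.18 to 3.79 counts. Intervals are at 95%, and those from counts cover counting error only. GENCODE M21 (GRCm38, the assembly of mm10) gave positions, where 98.4% of symbols matched.

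The members and gene lists were chosen with earlier results of these data known. Genes were named where they passed the test, as the 15 per direction of smallest unadjusted p with groups that did not overlap, as the 8 per direction with the widest gap between groups at a mean of at least 20 CPM, as harmine targets, and as up to 4 members per list by smallest p. Gzmb, Nkg7, Tbx21, Cd4, Foxp3, Ifng and Eomes were named after their values were seen, to account for their lists. Alternatives were DESeq2 1.42.0 (its size factors, and its Wald test), library size scaling, filters at 50 counts or at none, a replicate block, the compared groups alone, leaving out each library, removal of trends with length and GC content, and thinning to the smallest library. The sum of Gm20604 and Moap1 was chosen after seeing the data. Some genes that these rules take are not reported here.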

Additional observations from a re-analysis of the deposited data

How the results depend on the processing

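The number of genes that passed changed most when control replicate 2, at 1096345 counts the smallest library, was left out. Control replicate 1 was then the only control, and the cause was not tested. The number of genes called with harmine, 1 as reported, was 1 with library size scaling, with DESeq2's size factors, after removal of trends with length and GC content and after thinning, 3 with DESeq2's Wald test, 20 without a filter, and 0 with a minimum count of 50 and in a fit of the compared groups alone. It was 0 with a replicate block as well, where 721 genes had an unadjusted p under 0.05. Leaving out single libraries gave 1 to 291. Between harmine and Dyrk1a shRNA, 1 as reported, the number was 3 with library size scaling, 2 with the Wald test, 22 without a filter, 4 in a fit of the compared groups alone, 0 with a replicate block and 0 after removal of trends, and 0 to 5 without single libraries. In counts of 0, the unadjusted numbers with harmine were 382 with the minimum count of 50 and 418 in the compared groups alone, and between harmine and Dyrk1a shRNA 863 with the block and 503 after removal of trends. Of 479 alternative medians of the gene lists, 53 had the other sign.

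Replicate numbers are shared by the groups but nothing says that they pair the libraries, and the correlation of replicate differences between control and harmine was 0.11, so the paired values stand only here.

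Of 1460 alternative values of 99 named genes, Ski and Ebi3 not among them, 1403 kept their direction and side of the threshold. Those that turned direction had, without single libraries, values of -0.12 to 0.39 for Dyrk1a, -0.060 to 0.35 for Dyrk2, -0.17 to 0.23 for Dyrk3, -0.042 to 0.089 for Clk3, -0.18 to 0.39 for Clk4, -2.19 to 0.040 for Egr1, -1.60 to 0.15 for Il17a and -1.55 to 0.16 for Nkg7, on the log2 scale. After removal of length and GC trends Dyrk3 was at -0.018 and Clk3 at -0.0098. The cause was not tested.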
